A study of Mus musculus with 12 samples.

Results

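In subcutaneous white adipose tissue (WAT), 1145 autosomal regions carried a peak of H3K9me2 and a peak of H3K9me3 in mice fed a high-fat diet (HFD) and no peak of either mark in mice fed a standard chow diet (SCD). They were 1.65% of the 69233 regions obtained by merging all peaks of the 4 WAT lists on the 19 autosomes, and 10.7% of the 10654 regions that had both marks on HFD. A region was kept when it was overlapped by an HFD peak of each mark with a score of 50 or more and by no SCD peak of any score. The regions were thus selected on their WAT scores, and their HFD peaks and the absence of SCD peaks are described and not tested. Merging the peaks of all 8 lists, WAT and brown adipose tissue (BAT), gave 103077 regions.

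Wild-type C57BL/6J mice received SCD, labelled as control diet, or HFD from 6 weeks of age for 12 weeks, and chromatin of both fat depots was cross-linked with 1% formaldehyde for 8 min, immunoprecipitated and sequenced (ChIP-seq). There were 12 libraries, 1 for each diet, tissue and mark, which gave 8 peak lists, and 4 inputs, which were not analysed here. All groups were wild type and no agent other than the diet was named. How many animals stood behind a library was not given in the sources used here, so there is no replicate error, no test between diets is possible, and every interval below is an exact (Clopper-Pearson) 95% interval that covers counting error only. A list holds positions and a score, taken as -10 log10 of its p-value, and no expression values, so the tissue labels could not be checked against marker genes. The lists hold no read depth. The lowest score was 50 in the HFD lists of WAT and 30 in both SCD lists of WAT, which therefore held weaker peaks. The autosomal HFD lists of WAT held 20790 peaks of H3K9me2 and 27682 of H3K9me3, against 38449 and 25673 in the SCD lists, of which 20904 and 7531 had a score of 50 or more. The methods of the study describe the antibody used for H3K9me2 as a tri-methyl one and that for H3K9me3 as a di-methyl one, and the names of the marks follow the labels.

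Methylation of lysine 9 of histone H3 marks compacted chromatin. H3K9me2 covers silent genes, and H3K9me3, bound by HP1 proteins, covers pericentromeric satellites and transposable elements, which it helps to keep silent. LINE-1 elements are transposons, some of which are still active in the mouse genome. Young elements begin with a row of GC-rich promoter units in tandem and carry a long reading frame for a reverse transcriptase. WAT stores lipid in white adipocytes and also holds endothelial, immune and progenitor cells, and BAT burns lipid for heat.

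The regions gaining both marks shared sequence with each other. Every region was aligned with every other, and groups were built in turn, each from the seed region with the most matches among those left. A group held the seed and the remaining regions that matched it at 85% identity or more over at least 150 bp. In this way 771 of the 1145 fell into a group of at least 2 regions. The largest group held 534 regions (46.6%) and the next 150 (13.1%), and no other group held more than 11. The other 374 regions (32.7%) were left without a group, though a match to a region placed earlier was possible. For each of the 2 largest groups a core, core 1 and core 2, was taken as the part of the seed that at least 20% of the group covered. The matches counted below were made with the whole cores and not with the printed letters. The most shared stretch of 200 bases is printed for each core. Beside them are 3 of the 4 regions whose lower HFD score (the lower of the H3K9me2 and H3K9me3 scores) was highest. The lines show letters that recur among the regions, an intronic region that matches them, a single-copy promoter, and an AT-rich region. Letters and coordinates, counted from 1, are from the mm9 reference, 5′ to 3′, with CpG dinucleotides, the sites of DNA methylation, in capitals.
core 1, chr10:14642988-14643187, plus strand: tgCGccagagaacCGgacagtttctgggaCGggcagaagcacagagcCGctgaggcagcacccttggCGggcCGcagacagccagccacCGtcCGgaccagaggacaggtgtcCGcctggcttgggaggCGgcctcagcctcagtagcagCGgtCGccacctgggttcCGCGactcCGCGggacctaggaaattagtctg
core 2, chr16:38882424-38882623, plus strand: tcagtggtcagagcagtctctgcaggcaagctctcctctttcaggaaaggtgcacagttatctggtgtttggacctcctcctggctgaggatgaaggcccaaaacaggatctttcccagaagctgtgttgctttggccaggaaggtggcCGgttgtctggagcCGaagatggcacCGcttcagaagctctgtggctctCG
region in the Epha6 intron, chr16:59900027-59900226, plus strand: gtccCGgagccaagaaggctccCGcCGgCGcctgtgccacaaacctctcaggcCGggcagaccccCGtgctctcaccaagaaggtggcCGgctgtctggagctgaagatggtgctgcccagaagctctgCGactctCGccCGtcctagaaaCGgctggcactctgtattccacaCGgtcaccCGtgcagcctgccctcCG
region at the Ate1 promoter, chr7:137663059-137663258, plus strand: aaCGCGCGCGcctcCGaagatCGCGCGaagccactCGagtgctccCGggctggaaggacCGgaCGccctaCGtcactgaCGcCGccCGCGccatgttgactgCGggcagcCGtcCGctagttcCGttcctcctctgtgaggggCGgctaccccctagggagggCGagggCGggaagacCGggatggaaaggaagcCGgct
region near the start of chromosome 11, chr11:3001668-3001867, plus strand: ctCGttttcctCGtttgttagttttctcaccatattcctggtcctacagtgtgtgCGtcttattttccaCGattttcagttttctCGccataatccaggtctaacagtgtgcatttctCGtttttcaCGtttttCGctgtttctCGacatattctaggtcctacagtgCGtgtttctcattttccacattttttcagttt
The 200 bases printed for core 1 held 16 CpG and those printed for core 2 held 4. The Epha6 intron held 14 CpG in its 200 bases, the Ate1 promoter 26, and the region on chromosome 11 held 10.

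At 85% identity, copies of the repeated sequence made up most of the regions. A match to core 1, core 2 or both was found in 693 of the 1145 regions, or 60.5% (57.6 to 63.4), beside 8.49% of all merged WAT regions. At 95% identity the share was 18.1%. Core 1 was matched by 534 regions and core 2 by 436, with 277 matched by both. The cores were derived from these regions, so a high share among them follows in part from how the cores were made. Among the 9509 regions with both marks on HFD and a peak of either mark on SCD, 2636 matched (27.7%, 26.8 to 28.6). Among the 831 regions with the reverse pattern, both marks on SCD with scores of at least 50 and no peak on HFD, 1 matched (0.120%, 0.00305 to 0.669). No repeat annotation was used here, and the copies are called by sequence and not by family name.

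The matched regions were repeated in tandem. Of the 1145 regions, 611 (53.4%) held a stretch of 150 bp that recurred at 85% identity or more at a spacing between 20 and 400 bp, beside 16.3% of all merged WAT regions. In 561 of them the spacing lay between 190 and 220 bp, and the spacings found most often were 214 bp in 148 regions, 212 bp in 112, 208 bp in 97 and 201 bp in 91. Such a stretch was also in 48.3% of the regions losing both marks. In the regions with both marks on HFD and a peak on SCD it was in 34.4%. Among the 693 matched regions the share was 84.7% (81.8 to 87.3), and among the other 452 it was 5.31% (3.43 to 7.80). An open reading frame of at least 1000 codons outside the exons of protein-coding genes lay within 8 kb of 267 matched regions (38.5%) and of 13 of the others (2.88%), against 9.11% of all merged regions. Over the 1145 regions the share was 24.5%, close to the 21.1% of regions with both marks on HFD and a peak on SCD. In the regions losing both marks it was 4.81%. The reference holds 4950 such reading frames on the autosomes, 3825 of them within 8 kb of a copy of the repeated sequence.

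Few of the letters in the matched regions were unique in the genome. Of all 31-base words in a region, the share that occurs only 1 time in the reference had a median of 24.6% in the 1145 regions, 98.5% in the regions with both marks on HFD and a peak on SCD, 57.0% in the regions losing both marks and 91.6% in all merged regions. In the 693 matched regions the median was 15.9% (quartiles 8.75 and 25.3), and the median copy number of a word was 352. In the 452 others the median was 100%, with 1 copy. Reads that mapped to more than 1 place were removed by the authors before peaks were called, so peaks at the matched regions rest on the part of the sequence that differs between copies, and the part of this in the absence of SCD peaks was not tested.

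**Figure D1:**
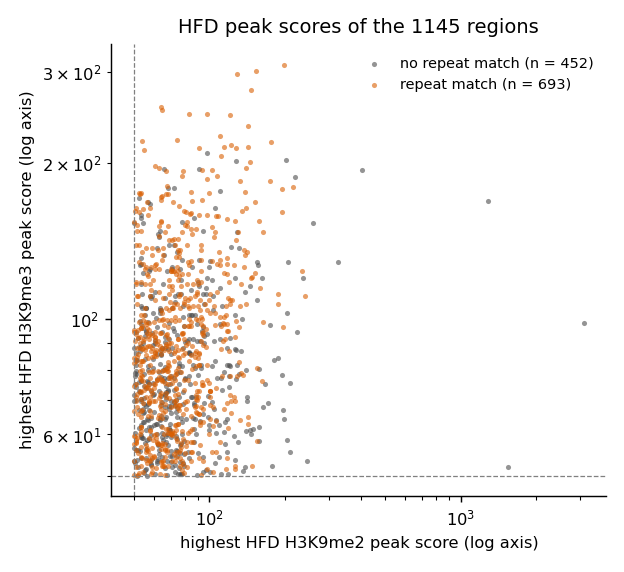
Highest HFD H3K9me2 score (horizontal, log axis) against highest HFD H3K9me3 score (vertical, log axis) of each of the 1145 regions, with regions matching the repeated sequence in orange and the others in grey. Dashed lines mark the lowest score of 50, near which many points lie, and the points with an H3K9me2 score above 1000 are grey.

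The peaks of both marks in a region lay over each other, which the merging of peaks largely fixes. In 1138 of the 1145 regions there was 1 HFD peak of each mark and no SCD peak. Such peaks had to overlap or touch to form 1 region, so only the extent of the overlap is a description. In all 1145 regions the highest-scoring HFD peaks of H3K9me2 and H3K9me3 overlapped, by 538 bp in the median, and in 1117 (97.6%) by at least 50% of the shorter peak. Their centres were 60.5 bp apart in the median and 120 bp at the upper quartile. The H3K9me3 peak was the wider one in 997 regions, with a median width of 749 bp against 571 bp for H3K9me2. The merged regions were 784 bp wide in the median, against 1214 bp for regions with both marks on HFD and a peak on SCD.

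Many regions were close to the threshold. The lower HFD score had a median of 64.3 (quartiles 55.7 and 78.0), against 85.5 for regions with both marks on HFD and a peak on SCD. It was under 60 in 439 regions (38.3%), and both scores were at least 100 in 106. The H3K9me2 scores had a median of 72.0 and the H3K9me3 scores a median of 82.0. Across the 1145 regions the rank correlation of both scores (Spearman's rho) was 0.16, a description over regions that share their libraries.

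Weak peaks decided on regions near the threshold. Just inside it, a region in an intron of Fam73a on chromosome 3 had HFD scores of 51.3 for H3K9me2 and 50 for H3K9me3, and a region in an intron of Fhit, on chromosome 14, had 50 and 66.5. The HFD lists hold no peak under 50, so nothing lies just outside on that side. On the SCD side, 5980 regions with both marks on HFD were barred by 1 SCD peak alone, of which 979 had an SCD score under 50. The weakest was an H3K9me2 peak with a score of 30.02, which barred chr10:103982411-103983394, whose lower HFD score was 73.1. Barring only by SCD peaks of at least 50 gave 2209 regions in place of 1145.

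SCD peaks were not far from many of the regions. The nearest SCD peak of either mark lay 23063 bp away in the median (quartiles 9823 and 48001). It lay within 1 kb of 53 regions, within 5 kb of 171 (14.9%) and within 20 kb of 517 (45.2%).

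The strongest regions were of several kinds. The highest lower score belonged to chr11:3001011-3002656, at the start of the assembled chromosome 11, which scored 202 for H3K9me2 and 203 for H3K9me3 and had 37.4% GC. In BAT it had an H3K9me3 peak of 446 on HFD and of 125 on SCD and no H3K9me2 peak on either diet. A second AT-rich region, chr2:98503528-98504351 with 39.9% GC, 1134 bp from a start site of the predicted gene Gm10801, scored 1283 and 169, and it too had BAT peaks of H3K9me3 alone, with scores of 575 on HFD and 80.2 on SCD. These regions stood apart from the others in base composition, since the lower quartile of GC over all 1145 was 55.7%.

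The Epha6 intron, whose letters are shown above, was the strongest region that matched the repeated sequence. Epha6 encodes an ephrin receptor, and the region, chr16:59899586-59900691, lay 104856 bp from the nearest start site. Its HFD scores in WAT were 199 for H3K9me2 and 309.6 for H3K9me3. In BAT it had peaks in all 4 lists, with H3K9me2 scores of 317 on SCD and 125 on HFD and H3K9me3 scores of 529 on SCD and 405 on HFD, so it was marked on both diets there. A matched region in an intron of Gpr158, an orphan receptor gene, at chr2:21506558-21507587, scored 194 and 178 in WAT, and in BAT 124 on SCD and 106 on HFD for H3K9me2 and 206 on SCD and 400.4 on HFD for H3K9me3. This region too had peaks of both marks on both diets in BAT.

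The widest regions were neighbours on chromosome 6. They spanned chr6:47687045-47691360 (4316 bp) and chr6:47705651-47709794 (4144 bp), matched neither core, and had 2.92% and 3.35% unique words. The first scored 407 for H3K9me2 and 194 for H3K9me3 on HFD, the other 326 and 129. In BAT both had H3K9me3 peaks on both diets, with scores of 1007 and 1008 in the HFD list and 430.4 and 92.6 in the SCD list. The third widest (3225 bp) lay 755 bp from a start site of Tcte2, a testis-expressed gene of the t-complex, and had an H3K9me2 score of 3100 in WAT and an HFD H3K9me3 score of 3100 in BAT, with no peak in either SCD list of BAT.

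The regions were spread over all autosomes. Their density ran from 0.330 per Mb on chromosome 9 to 0.546 per Mb on chromosome 17. Of the windows of 1 Mb that held any, 655 held 1 region and 1 held 6. That window, chr14:42000001-43000000, had 3 matched regions and none at a promoter, and the next, chr1:119000001-120000000 and chr5:78000001-79000000, had 5 regions each, all of them matched.

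**Figure D2:**
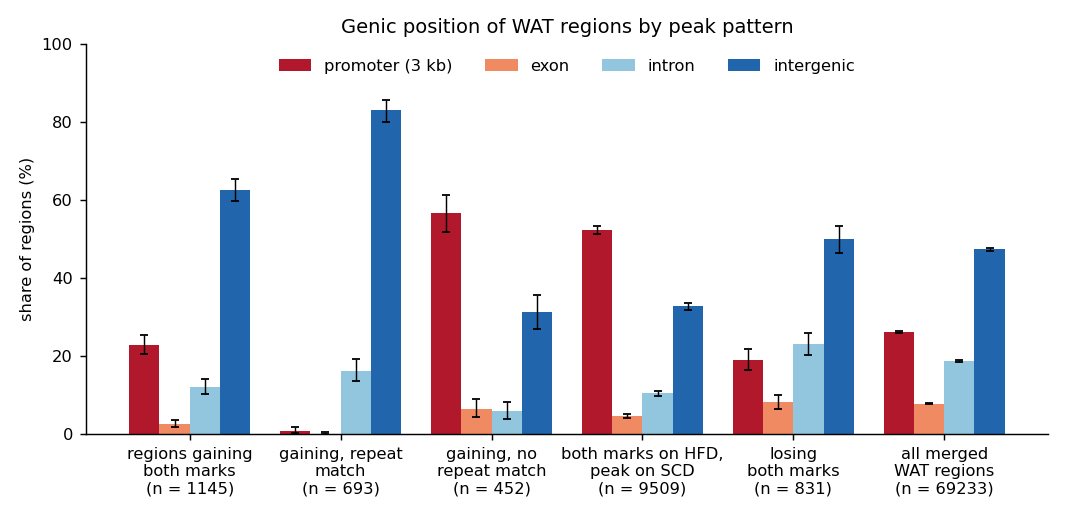
Share of regions (vertical, %) at a promoter, in an exon, in an intron or between genes for the 1145 regions gaining both marks, their parts with and without a repeat match, and 3 comparison sets, with exact 95% intervals as bars. Matched regions are nearly all outside promoters (0.866% at one), and 56.6% of the others are at a promoter.

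The 1145 regions lay mostly between genes. A region within 3 kb of an annotated start site of a protein-coding gene was placed at a promoter. At a promoter lay 262 regions, or 22.9% (20.5 to 25.4), beside 26.1% of all merged WAT regions, so the share was somewhat under the background. Exons away from promoters held 29 regions (2.53%, against 7.77% of all merged regions) and introns 138 (12.1%, against 18.7%). Intergenic regions numbered 716 (62.5%, 59.7 to 65.3), against 47.4% of all merged regions. The median distance to a start site was 50220 bp, against 1391 bp for regions with both marks on HFD and a peak on SCD, of which 52.3% (51.3 to 53.3) were at a promoter.

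That average joined sets with different positions. Of the 693 matched regions, 6 (0.866%, 0.318 to 1.87) were at a promoter, 0 covered a start site, for which 3 counts of the total, the limit used here for a count of 0, are 0.433%, and 575 (83.0%) were intergenic. Of the 452 others, 256 (56.6%, 51.9 to 61.3) were at a promoter and 210 (46.5%) covered a start site, against 17.1% of all merged regions covering one. In the regions with both marks on HFD and a peak on SCD the share covering a start site was 45.8%, within the interval of the 452 (41.8 to 51.2).

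Base composition followed the same split. The median GC content was 57.9% over the 1145 regions, 57.3% in matched regions, 60.5% in the others and 62.7% in the 262 at promoters, against 54.9% in all merged regions and 53.5% in regions losing both marks. The ratio of observed to expected CpG had a median of 0.50 in the 1145, 0.733 at the promoters among them, 0.330 in all merged regions and 0.156 in regions losing both marks. The GC box GGGCGG, read on both strands in the central 500 bp, was in 46.5% of the regions and in 75.6% of those at promoters, against 30.9% of all merged regions. The ETS core CCGGAAG was in 20.1% of the regions, both matched (21.8%) and other (17.5%), against 7.58% of all. The AP-1 site TGANTCA was in 2.01% against 7.44%, the nuclear receptor half-site AGGTCA in 11.3% against 21.8%, and CCAAT in 38.9% against 43.1%. The regions with both marks on HFD and a peak on SCD were close to these values for CCGGAAG (18.8%), TGANTCA (2.42%) and AGGTCA (11.6%), and had GGGCGG in 66.0%, a median GC content of 61.0% and a CpG ratio of 0.613. A match describes letters and is not a bound site.

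Promoters of 314 genes, 1.48% of the 21281 autosomal protein-coding gene symbols, had one of the regions. Of the 262 regions at promoters, 215 were near 1 gene and 47 near 2 or more, so the genes are fewer independent events than their number. The strongest was at Ate1, which encodes an arginyltransferase that tags proteins for degradation. At chr7:137662590-137663774, over the start site, it scored 219.6 for H3K9me2 and 188 for H3K9me3 in WAT, and in BAT it had an HFD H3K9me2 peak (96.9), none on SCD, and H3K9me3 peaks of 378 on HFD and 110.4 on SCD. Man1c1, for a Golgi mannosidase, scored 205 and 129 in WAT and had peaks in all 4 BAT lists, from 53.0 for SCD H3K9me2 to 1051 for HFD H3K9me3. At Itga5, for a subunit of the fibronectin receptor, the WAT scores were 154 and 129. It had no SCD H3K9me2 peak in BAT, and its HFD score for that mark there was 71.0. Its H3K9me3 peaks in BAT scored 173 on HFD and 174 on SCD, so it was marked there on both diets. At Vgf, for a secreted neuropeptide precursor, the region scored 156 and 127 but lay 672 bp from an SCD peak of WAT.

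Gene lists were counted beside the 1.48% of all genes that had a region at a promoter. Of 33 gene lists, 17 had no member at a promoter, among them white adipocyte and adipogenesis (0 of 28 genes), brown adipocyte and thermogenesis (0 of 32), lipogenesis (0 of 21), lipolysis and fatty acid oxidation (0 of 29), macrophage markers (0 of 18), endothelial markers (0 of 14), extracellular matrix (0 of 30), nuclear receptors (0 of 35) and the enzymes and readers of H3K9 methylation (0 of 25). At a background of 1.48% a list of this size is too short for a count of 0 to stand out. MAPK signaling had 1 of 112 genes (0.893%), Map3k11, which encodes a kinase upstream of JNK. Its region lay 620 bp from an SCD peak, scored 119 for H3K9me2 and 50.4 for H3K9me3, the latter just above the threshold, and covered a start site of the neighbouring Pcnxl3.

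Insulin signaling had 2 of 35 genes and the Wnt, inflammation, progenitor and lymphocyte marker lists 1 each, beside 1.48% of all genes. Gsk3b, for the kinase that inhibits glycogen synthase and marks beta-catenin for degradation, and also on the Wnt list (1 of 58), scored 135 and 100.2, with an SCD peak of WAT 28 bp away. Pik3r2, for a regulatory subunit of phosphoinositide 3-kinase, scored 58.3 and 53.6, with an SCD peak 960 bp away. Icam1, for an adhesion molecule that binds leukocytes and on both the inflammation list (1 of 40) and the progenitor list (1 of 19), scored 86.7 and 69.0, with the nearest SCD peak 9170 bp away. Gata3, a transcription factor of T cells that also restrains adipogenesis, scored 77.9 and 60.1, with an SCD peak 415 bp away. It was the only gene of the lymphocyte marker list with a region (1 of 14). At Gsk3b, Pik3r2 and Gata3 the region thus bordered on chromatin that had a peak on SCD.

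Counts in gene families were small, beside 1.48% of all genes. Solute carriers had 8 of 341 genes (2.35%), with the highest lower score at Slc25a33, a mitochondrial pyrimidine nucleotide carrier (127 and 120.2). Zinc finger genes had 8 of 358 (2.23%), potassium channels 2 of 92 and ribosomal proteins 2 of 78. Of 40 Nduf genes, subunits of mitochondrial complex I, 3 had a region (7.50%). They were Ndufs1, which had 60.9 and 50.4 with no peak in any BAT list, Ndufb6 (86.5 and 61.5) and Ndufa6 (74.3 and 54.6). Olfactory receptors, often in LINE-1-rich clusters, had 2 of 1106 (0.181%), Olfr1154 and Olfr1390, both through matched regions over 2 kb from the start site. Vomeronasal receptors had 0 of 326.

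None of 7 genes named in the paper, Map3k5, Met, Vegfa, Ppp3cc, Hspa1a, Dusp2 and Map3k14, had one of the regions at its promoter. All 7 had an SCD H3K9me2 peak in WAT within 3 kb of a start site, with scores from 93.8 at Vegfa to 274 at Map3k5. The rule bars a region that such a peak overlaps, and not a region that lies beside it.

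**Figure D3:**
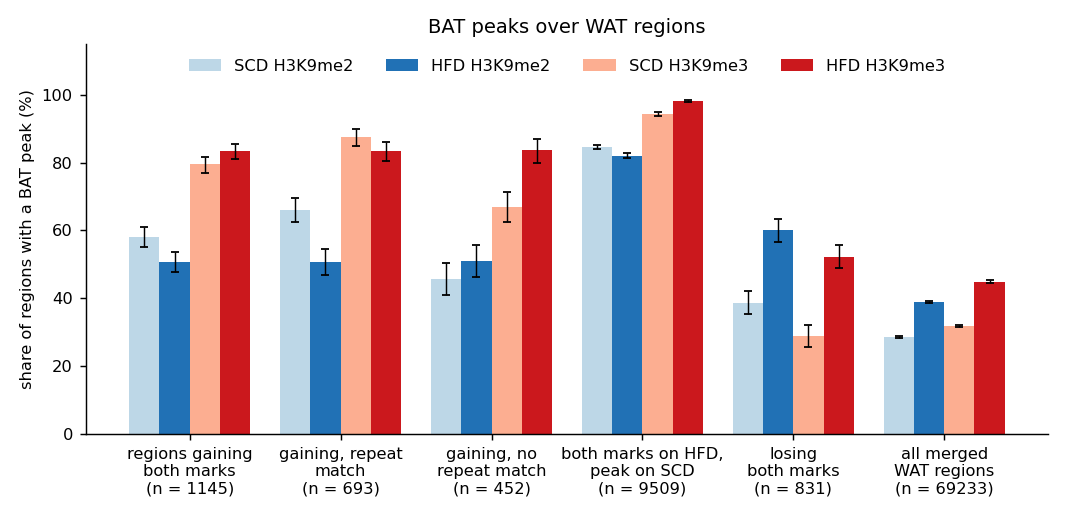
Share of WAT regions (vertical, %) with a peak in each of the 4 BAT lists, for the 1145 regions gaining both marks, their parts with and without a repeat match, and 3 comparison sets, with exact 95% intervals as bars. Among the 1145 regions the SCD bar is above the HFD bar for H3K9me2 (58.0% against 50.7%), and in all merged regions it is under it (28.7% against 38.9%).

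BAT was not used to choose the regions, and most of them had BAT peaks on both diets. In the SCD lists of BAT, 664 regions had an H3K9me2 peak (58.0%, 55.1 to 60.9) and 910 an H3K9me3 peak (79.5%, 77.0 to 81.8), beside 28.7% and 31.7% of all merged WAT regions. In the HFD lists, 581 had H3K9me2 (50.7%, 47.8 to 53.7) and 956 had H3K9me3 (83.5%, 81.2 to 85.6), beside 38.9% and 44.9%. A peak in either SCD list of BAT was found for 943 regions (82.4%), so that most regions without a peak on SCD in WAT had one on SCD in BAT. Peaks in all 4 BAT lists were found at 346 regions (30.2%, beside 16.6%), and in none at 70 (6.11%, beside 41.2%). BAT peaks were more frequent still at the regions with both marks on HFD and a peak on SCD, of which 84.6% had H3K9me2 and 94.4% H3K9me3 on SCD, 71.0% had peaks in all 4 lists and 0.557% in none.

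The WAT pattern itself was rare in BAT. Peaks of both marks on HFD and of neither on SCD were found at 47 regions (4.10%, 3.03 to 5.42), against 5.96% of all merged regions. The reverse was found at 36 (3.14%, 2.21 to 4.33), against 0.696% of all merged regions. The strongest of the 47 was intergenic on chromosome 10, with WAT scores of 94.6 for H3K9me2 and 148 for H3K9me3 and BAT scores of 98.6 and 147. A promoter among them, at Kif12, for a kinesin motor, scored 78.3 and 106 in WAT and 107 and 103 in BAT. Another lay near Zfp524, Zfp865 and Fiz1, with 94.2 and 96.6 in WAT and 110.3 and 209 in BAT, 1525 bp from an SCD peak of WAT. Of the 70 regions with no BAT peak, the strongest was in an intron of Gabrg3, for a GABA receptor subunit, with 113 and 90.7, and 1 of the 4 strongest was at the shared promoter of Ankra2 and Utp15 (84.6 and 114).

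Between diets, the H3K9me2 share in BAT was lower on HFD. The HFD minus SCD difference was -7.25 percentage points in the 1145 regions, with 205 regions on HFD only and 288 on SCD only, while in all merged regions it was 10.2 points. It was negative as well, at -2.57 points, in the regions with both marks on HFD and a peak on SCD, and -19.0 there with equal numbers of BAT peaks. For H3K9me3 it was 4.02 points in the 1145 regions, against 13.2 in all and 3.80 in the regions with a peak on SCD. The HFD lists of BAT are longer, with 42401 peaks against 23626 for H3K9me2 and 50303 against 25126 for H3K9me3. With the 23626 highest-scoring peaks of each BAT list the differences were -30.1 points for H3K9me2 and -26.8 for H3K9me3, so the sign for H3K9me3 turned, and in all merged regions they were -2.63 and -0.976. With 1 library per group none of these differences was tested.

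Matched regions and the others parted here too. In the 693 matched regions the BAT difference was -15.4 points for H3K9me2 (66.1% on SCD, 50.6% on HFD) and -4.18 for H3K9me3 (87.6% and 83.4%). In the 452 others it was 5.31 points (45.6% and 50.9%) and 16.6 points (67.0% and 83.6%). With equal numbers of BAT peaks the differences were -41.4 and -42.4 in matched regions and -12.8 and -2.88 in the others. At the 262 promoters H3K9me3 peaks were found in 80.5% on SCD and 93.1% on HFD, beside 31.7% and 44.9% of all merged regions. With equal numbers of BAT peaks the H3K9me3 shares at these promoters were 79.0% on SCD and 74.8% on HFD, so the order turned. For H3K9me2 the shares there were 53.1% on SCD and 51.1% on HFD, and 53.1% and 30.9% with equal numbers. The share with both HFD and neither SCD peak was 1.30% (0.596 to 2.45) in matched regions and 8.41% (6.02 to 11.4) in the others.

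BAT scores at these regions were lower than at regions with both marks on HFD and a peak on SCD. Where a peak was present, the median H3K9me3 score in BAT was 136 on SCD and 129 on HFD in the 1145, against 300.2 and 344. For H3K9me2 it was 87.6 and 74.5, against 137 and 107. Depth was not given, so scores are compared between sets of regions within a list, and no order of diets or marks is read from them.

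**Figure D4:**
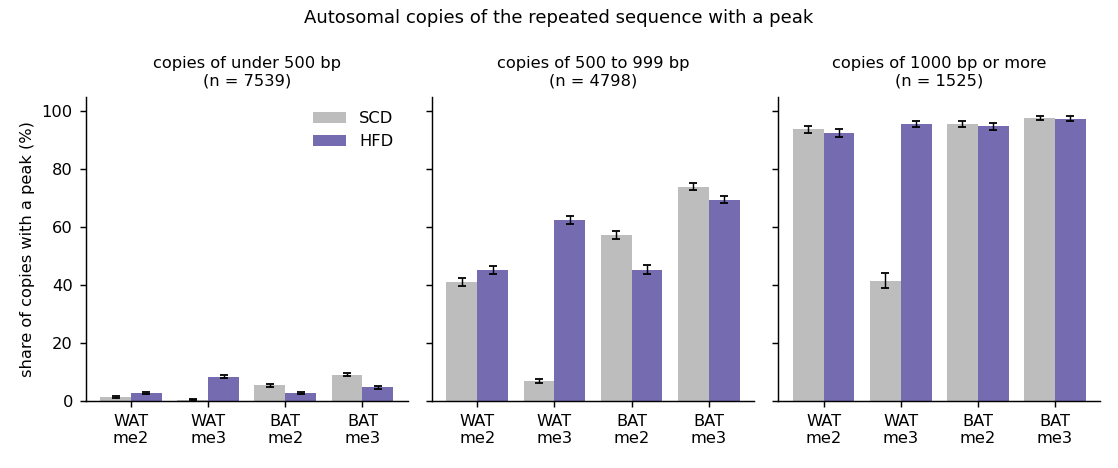
Share of autosomal copies of the repeated sequence with a peak (vertical, %) in each tissue and mark (me2, H3K9me2, and me3, H3K9me3) on SCD (grey) and HFD (purple), by length of the copy, with exact 95% intervals as bars. The SCD H3K9me3 bar of WAT is far under the others at copies of 500 bp or more (6.92% and 41.6%).

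To see the copies that the rule left out, all 13862 autosomal copies of the repeated sequence were counted, 7.86 Mb or 0.318% of the autosomes. Of these, 692 (4.99%) overlapped one of the 1145 regions. In WAT, 3511 copies (25.3%) had an H3K9me2 peak on SCD and 3802 (27.4%) on HFD, and 1011 (7.29%) had an H3K9me3 peak on SCD and 5100 (36.8%) on HFD. In BAT the shares were 33.4% on SCD and 27.7% on HFD for H3K9me2 and 41.4% and 37.4% for H3K9me3. The SCD H3K9me3 list of WAT thus stood apart from the other 7, in which the share ran from 25.3% to 41.4%. It is also the list with the fewest autosomal peaks at a score of 50 or more (7531), and the part of this in the shares was not tested. The WAT shares come from the contrast that chose the regions and are a description.

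Long copies had peaks in nearly every list. At the 1525 copies of 1000 bp or more, the share with a peak was between 92.5% and 97.8% in 7 lists, and 41.6% (39.2 to 44.2) in the SCD H3K9me3 list of WAT. At the 4798 copies of at least 500 bp and under 1 kb that list gave 6.92% (6.22 to 7.67) and the others 41.0% to 74.0%, and at the 7539 shorter copies the shares ran from 0.584% to 9.23%. Of the 3294 copies with both marks on HFD in WAT, 2616 also had a peak on SCD there. The copies with a peak in all 8 lists numbered 834. Copies near a long reading frame had H3K9me3 peaks in WAT in 19.3% on SCD and 69.9% on HFD, and copies without one in 2.32% and 23.1%.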

How the data were processed

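ChIP-seq peak lists of H3K9me2 and H3K9me3 in WAT and BAT were analysed. According to the labels and methods, the authors used FastQC, Trim Galore, Bowtie2 2.4.2 (mm9) and MACS2 and removed reads mapping to multiple sites. The deposited score has no stated unit and was read as 10 times the negative log10 p-value (50 is a p of 1e-05, 30 a p of 0.001).

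Peaks were merged when they overlapped by 1 bp or more. The reference was NCBIM37 with GENCODE vM1, and every autosomal peak ended within its chromosome there. Peaks on other chromosomes were left out. Regions were aligned with each other with BLAST 2.17.0 (85% identity, 150 bp). A core was the part of a group's seed that at least 20% of the group covered, and its matches within 1 kb were joined into copies. Gene lists used current symbols, and 9 were replaced by older ones. Named regions were the 12 with the highest lower score, the highest at promoters, with all, no or HFD-only BAT peaks, the widest, those nearest the threshold and those at list genes, and a part of them is printed. The regions and lists were chosen with earlier results of these data known. The cores, the copies and the split by repeat match were added after the data were seen. Python 3.11.15, NumPy 2.4.6, SciPy 1.17.1, numba 0.67.0, matplotlib 3.10.9 and bedtools 2.31.1 were used, and selection was tested on simulated data.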

Additional observations from a re-analysis of the deposited data

Results flagged for a closer look

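Over all copies of the repeated sequence, the diet contrast had opposite signs in the tissues. For H3K9me2 the HFD minus SCD difference in the share of copies with a peak was 2.10 percentage points in WAT and -5.64 in BAT. For H3K9me3 it was 29.5 points in WAT and -4.01 in BAT. The WAT sign for H3K9me2 did not hold in every kind of copy. At copies of 1000 bp or more the WAT share was 93.8% on SCD and 92.5% on HFD. At copies near a long reading frame it was 58.0% and 56.8%. The SCD lists of WAT reach down to a score of 30 and the HFD lists to 50, and with scores of at least 50 the WAT difference for H3K9me2 was 7.66 points. With equal numbers of peaks per tissue the differences for H3K9me2 were 7.71 in WAT and -14.8 in BAT, and for H3K9me3 25.9 and -14.7. At the 1145 regions, where the rule fixes a rise in WAT, the H3K9me2 difference in BAT was -7.25 points. With 1 library per group the difference between tissues was not tested, and the WAT values come from the contrast that chose the regions.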

How the results depend on the processing

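No paired analysis was possible because there was 1 library per group and the labels give no replicate numbers. A missing SCD peak was one not detected at the unknown depth of that library. Settings not listed for a result left it within its interval, or a count within 1.5 times.

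With HFD scores of at least 80 there were 264 regions, 66.7% matched, with 58.3% GC and BAT shares of 65.5% and 94.3% (HFD H3K9me2 and H3K9me3) and 72.7% and 92.8% (SCD). With only SCD peaks of at least 50 barring a region there were 2209 regions, 34.6% at promoters and 48.1% matched, with 58.2% GC and BAT shares of 58.7%, 88.0%, 62.5% and 83.4% in the same order. With equal numbers of WAT peaks there were 1791, 32.9% at promoters and 51.9% matched, with 58.6% GC and shares of 60.4%, 89.7%, 65.2% and 84.6%. Merging within 1 kb gave 18.8% at promoters, 66.5% matched and 56.7% GC. With no SCD peak within 5 kb, 18.9% were at promoters and 68.4% matched. With 1 start site per gene, 20.4% were at promoters.

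The 452 regions without a repeat match (a setting chosen after seeing the data, as are those below on matches and copies) had 56.6% at promoters, 60.5% GC, SCD BAT shares of 45.6% and 67.0% and BAT differences of 5.31 points, reversed for H3K9me2, and 16.6 points for H3K9me3. Equal numbers of BAT peaks gave HFD shares of 27.9% and 50.7% and differences of -30.1 and, reversed for H3K9me3, -26.8 points. The former leaves out regions, and the latter limits each list to 23626 peaks. At 95% identity 18.1% of regions matched.

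For copies, the WAT difference was 7.66 points for H3K9me2 and 33.5 for H3K9me3 with scores of at least 50, 7.71 and 25.9 with equal numbers of peaks, and 5.70 and 42.1 at 95% identity. In BAT it was -14.8 and -14.7 with equal numbers, and -9.94 and -5.46 at 95% identity. No sign turned among the differences over all copies at these settings. Within the long copies and those near a long reading frame, the WAT difference for H3K9me2 was negative, as given above. The cause of the other changes was not tested.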
